A study of Mus musculus with 6 samples.

Results

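The genes described here encode the platelet-derived growth factor (PDGF) system of the mouse: the ligands Pdgfa, Pdgfb, Pdgfc and Pdgfd, the receptors Pdgfra and Pdgfrb, and the receptor-like gene Pdgfrl. They are 7 of the 55385 mouse gene rows of the count table, chosen by name, and all 7 passed the filter on low counts that left 18504 genes for testing. RNA was sequenced from PDVC57, an established mouse squamous carcinoma line of keratinocyte origin, in 3 libraries labelled Sox2 knockout and 3 labelled Sox2 overexpression. Both groups are cells taken back from grafted tumours, per the series' design text, which describes them as low and high in Sox2. The labels name no host strain, no clone, no parental control with unaltered Sox2 and no way in which carcinoma cells were separated from host cells.

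PDGF ligands are secreted as dimers that bring receptor chains together and switch on their tyrosine kinase domains. PDGFRα binds A, B and C chains and is a usual marker of fibroblasts, whereas PDGFRβ binds B and D chains and is found on fibroblasts and on the mural cells of vessels. In carcinomas of the skin the tumour epithelium is known as a source of ligand and the stroma as the main site of the receptors.

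The RefSeq promoter table (GRCm38.p6) held 4 of the 7 genes, and stretches before the start sites of a receptor, a ligand at almost no counts with overexpression and a ligand that was present in both groups are shown for comparison of their make-up. Lower case is reference sequence, 5′ to 3′ on the gene's strand, and capitals mark a TATA box (TATAAA) or a GC box (GGGCGG).
Pdgfra (chr5:75152001-75152250, plus strand): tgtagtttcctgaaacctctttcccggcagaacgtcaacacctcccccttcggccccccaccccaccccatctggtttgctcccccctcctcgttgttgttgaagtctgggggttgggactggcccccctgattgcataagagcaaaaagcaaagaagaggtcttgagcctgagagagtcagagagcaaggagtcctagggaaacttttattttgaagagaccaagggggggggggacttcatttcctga
Pdgfd (chr9:6168236-6168362, plus strand): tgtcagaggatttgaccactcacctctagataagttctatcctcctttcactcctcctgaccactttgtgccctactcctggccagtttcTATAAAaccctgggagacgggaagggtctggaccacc
Pdgfa (chr5:138994282-138994398, minus strand): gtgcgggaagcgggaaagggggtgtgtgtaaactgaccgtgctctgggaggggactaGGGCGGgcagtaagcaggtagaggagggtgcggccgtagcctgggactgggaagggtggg
The stretches of Pdgfa and Pdgfd were shortened so that none lies in a GENCODE M21 exon of its gene, and that of Pdgfd ends before the RefSeq start of the gene. The Pdgfa stretch lies inside the gene, before the downstream of its 2 start sites and past the upstream one. The stretch before the upstream site, shortened in the same way and not shown, held no match to the GC box. In the full windows of 250 bases, GC content was 54.4% for Pdgfra, 53.6% for Pdgfd, 50.8% for Pdgfc and 66.4% and 72.4% for the windows of the 2 Pdgfa start sites, against a median of 52.4% over 32851 windows of the same length. The motifs searched on both strands were a core bound by SOX factors (AACAATG), found in 3.29% of all windows, the TATA box in 12.4%, the GC box in 32.7% and the CCAAT box (spelled as named) in 33.8%, and none of them lies within another. The Pdgfd window held 1 TATAAA and the Pdgfa windows held 1 and 2 matches to GGGCGG. No window of these 4 genes held AACAATG or CCAAT, and the Pdgfra and Pdgfc windows held none of the motifs.

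Libraries held between 31247976 and 38543221 counts over mouse genes. A floor of 3 counts, the most that a count of 0 allows, was 0.0759 to 0.101 CPM (counts scaled to library size) and covers counting error only. Sox2 was at 0.685 to 1.44 CPM in the knockout libraries and at 78.3 to 128.2 CPM in the overexpression libraries, so its level separated the groups as labelled. Epithelium markers (keratins, Epcam, Cdh1 and others) were present in every library, at a summed level of 4165 to 6526 CPM with knockout and 9336 to 13290 CPM with overexpression. The fibroblast marker list summed to 53080 to 82339 CPM with knockout and to 283 to 471 CPM with overexpression. The knockout libraries therefore held RNA of both epithelial and fibroblast genes under a label that names only the carcinoma line. In bulk libraries, fewer cells of a type and less RNA per cell cannot be told apart.

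With Sox2 overexpression the receptor transcripts were more than 100-fold lower, while 3 of the 4 ligands stayed at levels of the same order. Of the 7 genes, 4 were lower (Pdgfra, Pdgfrb, Pdgfrl and Pdgfd) and 1 was higher (Pdgfb, whose call ends when libraries are scaled to epithelium markers) with an adjusted p under 0.05, and Pdgfa and Pdgfc did not pass (edgeR quasi-likelihood test). Over all tested genes, 18.0% were lower and 13.6% higher by the same rule. The libraries of the groups did not overlap for these 5 genes, as for 50.9% of all tested genes (26.5% lower and 24.4% higher). The same 5 also differed at least 2-fold, as did 21.4% of all tested genes (15.3% lower and 6.10% higher). The median log2 fold change of the 7 genes was -6.73, beside -0.016 over all tested genes.

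**Figure D1:**
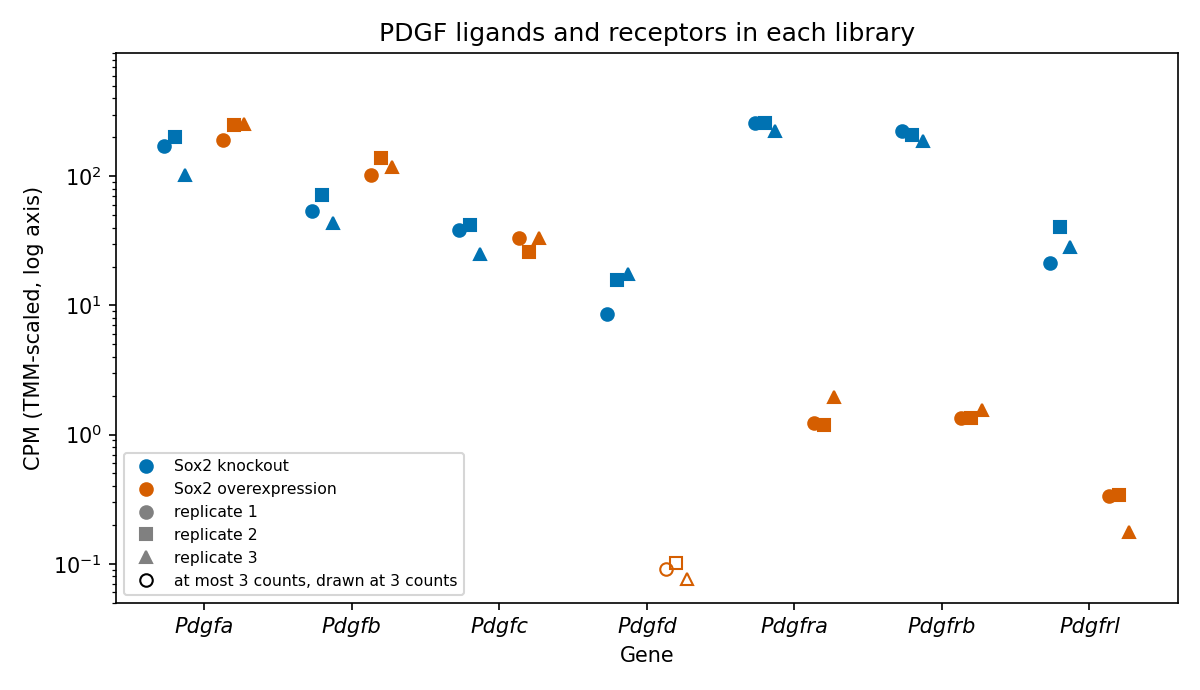
CPM of each PDGF gene in each library on a log axis, with knockout in blue, overexpression in orange and a marker shape per replicate. The receptors, Pdgfrl and Pdgfd sit far lower with overexpression, Pdgfb sits higher under this TMM scaling (by 0.062 on the log2 scale when libraries are scaled to epithelium markers), and open markers for Pdgfd stand at the floor of 3 counts.

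The receptor genes were examined first. Pdgfra (ENSMUSG00000029231, chromosome 5, 75152292 to 75198215, plus strand, GRCm38) encodes the receptor chain that binds PDGF-AA and PDGF-CC. It was at 259, 258 and 223 CPM in knockout replicates 1, 2 and 3, from 7815 to 8830 counts, and at 1.22, 1.18 and 1.95 CPM in overexpression replicates 1, 2 and 3, from 35 to 77 counts. The knockout libraries lay close together and far above all overexpression libraries, among which replicate 3 was the highest. The means were 247 ± 20.7 CPM (SD, n = 3) and 1.45 ± 0.431 CPM (SD, n = 3), a 168-fold difference. The log2 fold change was -7.39 ± 0.26 (standard error; edgeR, adjusted p = 1.06e-06), and 1.66% of tested genes had a lower fold change. Exons of Pdgfra share bases with Gm42802, Gm42803 and Mir7025, which had at most 13 counts in a library.

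Pdgfrb (ENSMUSG00000024620, chromosome 18, 61045150 to 61085061, plus strand) encodes the receptor chain that binds PDGF-BB and PDGF-DD. It was at 224, 208 and 187 CPM in knockout replicates 1, 2 and 3 and at 1.34, 1.35 and 1.54 CPM in overexpression replicates 1, 2 and 3. The groups did not overlap, and the spread within each was small beside the gap. The means were 206 ± 19.0 CPM (SD, n = 3) and 1.41 ± 0.113 CPM (SD, n = 3), a 145-fold difference. On the log2 scale the difference was -7.18 ± 0.19 (standard error; edgeR, adjusted p = 1.06e-06). Ordered by p-value over the 18504 tested genes, Pdgfrb came 1st and Pdgfra 12th.

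Pdgfrl (ENSMUSG00000031595, chromosome 8, 40926212 to 40990785, plus strand) encodes a secreted protein that resembles the ligand-binding part of a PDGF receptor and has no kinase domain. It was at 21.3, 40.1 and 28.3 CPM in knockout replicates 1, 2 and 3, and at 0.336, 0.338 and 0.177 CPM in the overexpression libraries, where it had 7 to 11 counts. Knockout replicate 2 was the highest and overexpression replicate 3 the lowest, with no overlap of the groups. The means were 29.9 ± 9.51 CPM (SD, n = 3) and 0.284 ± 0.0923 CPM (SD, n = 3). On the log2 scale Pdgfrl differed by -6.73 ± 0.37 (standard error; edgeR, adjusted p = 3.77e-06).

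Among the ligands, Pdgfd was low in the same libraries as the receptors. Pdgfd (ENSMUSG00000032006, chromosome 9, 6168584 to 6378850, plus strand) encodes a chain that is secreted in a latent form with a CUB domain and is cut by proteases before it binds PDGFRβ. In knockout replicates 1, 2 and 3 its level was 8.62, 15.8 and 17.3 CPM, from 294 to 633 counts. The overexpression libraries held 0, 1 and 1 counts, all under the floor. Relative to 3 counts in the overexpression library with the least effective depth, Pdgfd was at least 137-fold lower. Its fitted change differed from 0 (edgeR, adjusted p = 7.07e-06), a test that does not measure the 137-fold bound. Pdgfd passed the filter on low counts through the knockout libraries only.

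Pdgfb (ENSMUSG00000000489, chromosome 15, 79995874 to 80014977, minus strand) encodes the B chain, a ligand of both receptors that is known for bringing mural cells to vessels. It was at 53.9, 71.0 and 43.8 CPM in knockout replicates 1, 2 and 3 and at 103, 139 and 118 CPM in overexpression replicates 1, 2 and 3. The lowest overexpression library, replicate 1, stood above the highest knockout library, replicate 2. The means were 56.2 ± 13.8 CPM (SD, n = 3) and 120 ± 18.3 CPM (SD, n = 3), a 2.14-fold difference, or 1.096 ± 0.21 on the log2 scale (standard error; edgeR, adjusted p = 0.00404). With libraries scaled to the epithelium markers instead, the log2 fold change was 0.062 (adjusted p = 0.833), where the adjusted p ranged from 2.14e-05 to 0.833 over the alternatives. That scaling called 64.1% of all tested genes lower and 1.98% higher and moved their median to -1.072, and relative to this median Pdgfb was 1.13 higher. Platelets carry PDGF-B protein, and of their 5 marker genes 3 were tested, of which Itga2b was lower past the threshold and Ppbp did not pass. Gp1bb, the third of them, had 12, 0 and 0 counts with knockout and 34, 24 and 36 with overexpression, in the order of the replicates, without overlap, and missed the threshold (edgeR, unadjusted p = 0.0191, adjusted p = 0.0575). The summed platelet markers lay between 15.5 and 18.7 CPM with knockout and between 10.6 and 11.4 CPM with overexpression, and the part of platelets in the Pdgfb level was not tested.

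Pdgfa (ENSMUSG00000025856, chromosome 5, 138976014 to 138997370, minus strand) encodes the A chain, a ligand of PDGFRα made by many epithelia. It was at 172, 201 and 101 CPM in knockout replicates 1, 2 and 3 and at 189, 250 and 254 CPM in overexpression replicates 1, 2 and 3. The groups overlapped, since knockout replicate 2 lay above overexpression replicate 1, and knockout replicate 3 was the lowest library. The means were 158 ± 51.1 CPM (SD, n = 3) and 231 ± 36.2 CPM (SD, n = 3). The log2 fold change of 0.55 (standard error 0.25) did not pass the threshold (edgeR, adjusted p = 0.135), and it was -0.46 with the epithelium scaling (adjusted p = 0.111, where alternatives gave 0.059 to 0.316). Relative to the median of all tested genes under that scaling, Pdgfa was 0.61 higher. Exons of Pdgfa share bases with 6330403L08Rik on the other strand, which had 1444 to 2399 counts in a library, so part of the reads could belong to either gene.

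Pdgfc (ENSMUSG00000028019, chromosome 3, 81036416 to 81214040, plus strand) encodes the other chain with a CUB domain, a ligand of PDGFRα after cutting. It was at 38.4, 42.2 and 25.2 CPM in knockout replicates 1, 2 and 3 and at 33.4, 25.8 and 33.03 CPM in overexpression replicates 1, 2 and 3. The groups overlapped, and the log2 fold change of -0.20 (standard error 0.22) did not pass the threshold (edgeR, adjusted p = 0.523). With the epithelium scaling it was -1.20 (adjusted p = 0.00193), close to the median of all tested genes under that scaling, and the adjusted p ranged from 0.00193 to 0.921 over the alternatives. Gm16000, whose exons share bases with Pdgfc, had at most 2 counts in a library.

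Levels of different genes were compared per length, as TPM (counts divided by summed exon length and scaled to the same sum in every library). In the knockout libraries the order of mean TPM was Pdgfa (176 ± 51.4), Pdgfrb (132 ± 14.6), Pdgfra (86.02 ± 6.99), Pdgfb (46.9 ± 9.02), Pdgfrl (33.1 ± 8.67), Pdgfc (24.1 ± 5.45) and Pdgfd (15.4 ± 5.02; SD, n = 3 each). Neighbours in that order overlapped between libraries except Pdgfrb with Pdgfra and Pdgfra with Pdgfb. The place of Pdgfrb above Pdgfra rests on summed exon lengths of 5478 and 10024 bases, which cover all transcripts of a gene. In CPM Pdgfra was the higher of them with knockout (247 against 206). In the overexpression libraries the order was Pdgfa (223 ± 31.2), Pdgfb (86.5 ± 4.74), Pdgfc (18.5 ± 4.49), Pdgfrb (0.783 ± 0.123), Pdgfra (0.442 ± 0.157) and Pdgfrl (0.272 ± 0.087; SD, n = 3 each), with Pdgfd under the floor. There only Pdgfra and Pdgfrl overlapped among neighbours above the floor. Ligand transcripts thus took the first 3 places with overexpression, whereas both receptors stood above Pdgfb with knockout.

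**Figure D2:**
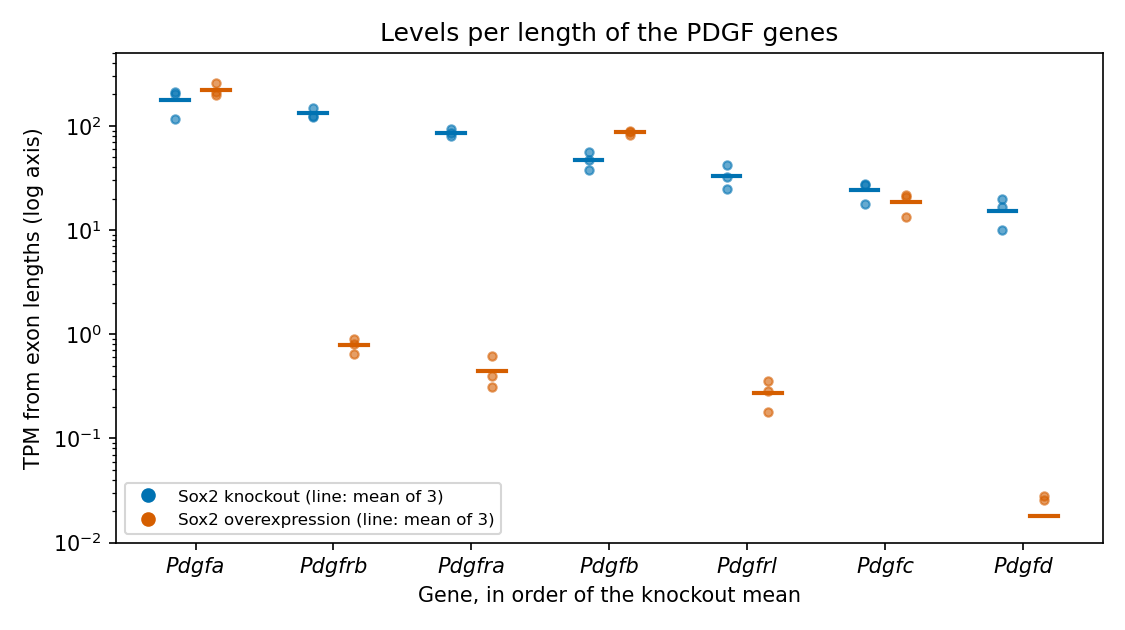
TPM from exon lengths on a log axis for each PDGF gene, ordered by the knockout mean, with points for libraries and lines for means of 3. Pdgfa has the highest mean in both groups, although in knockout replicate 3 Pdgfrb was above it (122.5 against 117 TPM). The receptors drop from means of 132 and 86.02 TPM to under 1 TPM, and the Pdgfd point at 0 in overexpression replicate 1 cannot be drawn.

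The ligand and receptor sides were then set against each other within each library. The 4 ligands summed to 285, 310 and 192 TPM in knockout replicates 1, 2 and 3 and to 302, 313 and 369 TPM in overexpression replicates 1, 2 and 3, and these ranges overlapped. The receptors Pdgfra and Pdgfrb summed to 202 to 242 TPM with knockout and to 0.961 to 1.51 TPM with overexpression. Per receptor transcript there were 0.951 to 1.49 ligand transcripts in a knockout library and 244 to 325 in an overexpression library. Pdgfa made up 60.8% to 70.4% of ligand transcripts with knockout and 66.0% to 70.0% with overexpression, so its share overlapped between the groups. Pdgfb made up 16.5% to 19.7% with knockout and 24.4% to 28.2% with overexpression, without overlap. The share of Pdgfc was 8.76% to 9.60% with knockout and 4.27% to 7.14% with overexpression. Pdgfra made up 38.7% to 40.4% of the receptor transcripts in the knockout libraries and 32.3% to 40.8% in the overexpression libraries, where few counts stand behind each value. These shares of Pdgfra depend on the summed exon lengths used.

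Receptor levels were measured beside markers of the cells that usually carry them. All 10 fibroblast markers, among them Col1a1, Col1a2, Col3a1, Dcn, Lum and Dpt, were lower with overexpression past the threshold, with a median log2 fold change of -8.42. By the same rule 18.0% of all tested genes were lower and 13.6% higher. Per 1000 counts of the fibroblast list, Pdgfra stood at 4.88, 3.14 and 2.88 with knockout and at 4.32, 3.57 and 4.14 with overexpression, in the order of the replicates. For Pdgfrb these values were 4.23, 2.53 and 2.41 with knockout and 4.75, 4.08 and 3.28 with overexpression. Col1a1, Col1a2 and Col3a1 held most of the list's counts in every library, so these are mainly ratios to collagen genes. Single markers of the list had log2 fold changes from -9.98 to -2.11. On this collagen-weighted measure each receptor overlapped between the groups, at more than 100-fold different levels in CPM. The mean log2 ratio of Pdgfra to the fibroblast list differed by 0.18 and that of Pdgfrb by 0.43 (overexpression minus knockout; exact two-sided permutation tests over 3 against 3 libraries, p = 0.5 and p = 0.3, where the smallest possible p is 0.1). With the median of the fibroblast list's genes as the denominator these differences were 0.44 for Pdgfra and 0.70 for Pdgfrb. Pdgfrl had 0.365 to 0.487 counts per 1000 with knockout and 0.376 to 1.19 with overexpression, which also overlapped.

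**Figure D3:**
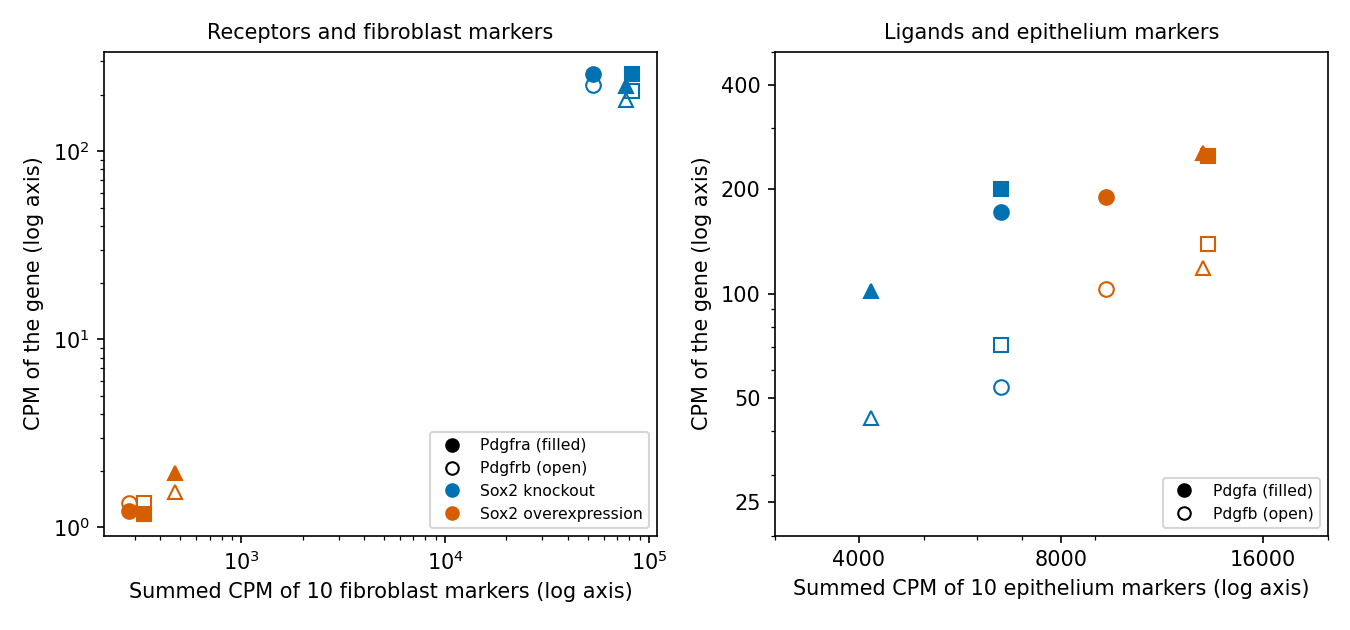
Left, CPM of Pdgfra (filled) and Pdgfrb (open) against the summed CPM of 10 fibroblast markers, and right, CPM of Pdgfa (filled) and Pdgfb (open) against the summed CPM of 10 epithelium markers, on log axes with a marker shape per replicate. Receptors and fibroblast markers are high together in the 3 knockout libraries (blue) and low together in the 3 overexpression libraries (orange).

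Within the knockout group the libraries did not follow the fibroblast list closely. The list summed to 53080 CPM in replicate 1, 82339 CPM in replicate 2 and 77350 CPM in replicate 3, whereas Pdgfra was lowest in replicate 3 and Pdgfrb was highest in replicate 1. Pdgfd was lowest in replicate 1, where the list was also lowest. With overexpression, replicate 3 had both the highest fibroblast sum and the highest levels of Pdgfra and Pdgfrb.

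Most mural cell markers were lower with overexpression too, but the list fell less than the receptors. Of 10 mural markers 8 were lower past the threshold, with a median log2 fold change of -4.60 for the list, and Notch3 was higher. Over all tested genes 18.0% were lower and 13.6% higher. Rgs5, a defining gene of pericytes, had 1332 to 3059 counts in a knockout library and 0, 0 and 15 in the overexpression libraries. The list summed to 319 to 451 CPM with knockout and to 111 to 177 CPM with overexpression, where Notch3, Acta2 and Mcam held most of it. The mean log2 ratio of Pdgfrb to this sum differed by -5.67 and that of Pdgfra by -5.92 (overexpression minus knockout; exact two-sided permutation tests, p = 0.1 each, the smallest possible). With the median of the list's genes as the denominator these differences were -2.20 and -2.45.

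Most tested markers of endothelium and leukocytes were lower with overexpression as well, beside 18.0% lower and 13.6% higher over all tested genes. Some of them, such as Cdh5, Cldn5 and Nkg7, had at most 3 counts in every overexpression library. They passed the filter on low counts through the knockout libraries, so a difference in the other direction could hardly have been seen for them. Of the endothelium markers 7 of 8 tested were lower past the threshold, from a sum of 36.9 to 129 CPM to one of 13.6 to 20.3 CPM, and Cdh5, Emcn, Erg and Cldn5 were at 0 in at least 1 overexpression library. Of the leukocyte markers 6 of 7 tested were lower, from a sum of 23.4 to 158 CPM to one of 8.55 to 12.7 CPM, with the highest value in knockout replicate 3. With overexpression a gene that was not called held most of each sum. This was Tek for endothelium (9.34 to 16.9 CPM) and Cd68 for leukocytes (6.85 to 11.2 CPM). None of the 2 tested Schwann cell markers passed the threshold (edgeR, 0 also at an unadjusted p under 0.05), and their list summed to at most 10.6 CPM in a library. The part of these other cells in the receptor and ligand levels was not tested.

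Ligand levels were set beside the epithelium markers in the same way. Pdgfb had 8.25, 10.9 and 10.5 counts per 1000 epithelium marker counts in knockout replicates 1, 2 and 3 and 11.02, 10.5 and 9.07 in overexpression replicates 1, 2 and 3, and the groups overlapped. Pdgfa had 26.4, 30.7 and 24.4 counts per 1000 with knockout and 20.3, 18.8 and 19.5 with overexpression, which did not overlap. Krt5, Krt14, Krt8 and Krt18 held most of the list's counts in every library, so these are mainly ratios to keratin genes. The mean log2 ratio of Pdgfa to the epithelium list differed by -0.47, that of Pdgfc by -1.24 and that of Pdgfb by 0.05 (overexpression minus knockout; exact two-sided permutation tests, p = 0.1, 0.1 and 0.7, with 0.1 the smallest possible). The log2 ratio of Pdgfb to Pdgfa, chosen after the values were seen, was -1.46 ± 0.24 with knockout and -0.94 ± 0.14 with overexpression (SD, n = 3 each), without overlap of the libraries.

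Genes whose log2 CPM followed each member most closely over the 6 libraries were taken from 11159 candidates and are given as a description. For Pdgfra they were Loxl2, Mxra8 and Dchs1 (r = 0.9998, 0.9997 and 0.9996), for Pdgfrb Ddah1, Stox2 and Tmem47 (0.9995, 0.9992 and 0.9992), and for Pdgfrl Cdc42ep5, C2 and Fam234b (0.9994, 0.9992 and 0.9989). For Pdgfd they were Sec16b, Sod3 and Kctd17 (0.9999, 0.9998 and 0.9998). With the groups this far apart, 983 candidates had an r above 0.95 with Pdgfra. For Pdgfb, where 386 candidates exceeded 0.95, the closest were Eva1c, Pnkd and Arhgdib (0.998, 0.995 and 0.995). For Pdgfa, where 53 exceeded 0.95, they were Plek2, Naa80 and Zfp277 (0.996, 0.995 and 0.991). For Pdgfc, where 2 candidates exceeded 0.95, they were mt-Cytb, Zfp944 and mt-Nd5 (0.958, 0.956 and 0.946). Pdgfra and Pdgfrb correlated with each other at r = 0.999 over the same 6 libraries, and Pdgfa with Pdgfb at r = 0.877.

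The other genes of the pathway were read from 6 lists of 53 genes, all tested. Of these, 12 were higher and 12 lower past the threshold (45.3% called, beside 31.6% of all tested genes), and the median log2 fold change was -0.016. The counts of each list stand beside 13.6% higher and 18.0% lower over all tested genes. Levels in the next paragraphs are means ± SD over n = 3 libraries of a group. With the epithelium scaling 0 were higher and 37 of 53 lower, beside 64.1% lower over all tested genes.

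Proteases that cut PDGF chains into active ligands went both ways. Of 7 genes, 2 were higher, 2 were lower and Furin, Pcsk7 and Plau did not pass. Pcsk5, a proprotein convertase, was at 133 ± 18.7 CPM with knockout and 1.28 ± 0.407 CPM with overexpression, which is a log2 fold change of -6.69 (edgeR, adjusted p = 1.56e-06). Plat, the tissue plasminogen activator that cuts PDGF-C, fell by 1.74 on the log2 scale, from 288 ± 49.6 to 86.2 ± 18.7 CPM. St14, which encodes the epithelial protease matriptase, rose from 129 ± 30.2 to 400.3 ± 95.1 CPM, or by 1.63 on the log2 scale, and the convertase gene Pcsk6 rose by 1.55 (edgeR, adjusted p = 0.0012 and 0.000455). With the epithelium scaling the log2 fold changes of St14 and Pcsk6 were 0.55 and 0.44 (adjusted p = 0.136 and 0.195, the highest over the alternatives, where the lowest were 3.06e-09 and 7.52e-12).

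Co-receptors and proteins that bind PDGF or its receptors were mostly lower. Of 4 genes, Sparc, Lrp1 and Cspg4 were lower and Nrp1 was higher. Sparc, a matrix protein that binds PDGF, fell from 5288 ± 1081 to 412 ± 183 CPM, which is a log2 fold change of -3.68 (edgeR, adjusted p = 0.000144). Lrp1, an endocytic receptor that associates with PDGFRβ, had a log2 fold change of -2.37, and Cspg4, the NG2 proteoglycan of mural cells, one of -5.07. Nrp1, which encodes neuropilin-1, rose from 206 ± 29.9 to 309 ± 16.5 CPM, which is a log2 fold change of 0.59 (edgeR, adjusted p = 0.0235). This call was lost without knockout replicate 2 or 3 (adjusted p = 0.0799 and 0.101) and without overexpression replicate 3 (0.068), the log2 fold change was -0.45 with the epithelium scaling, and the adjusted p ranged from 0.00424 to 0.131 over the alternatives. Under the epithelium scaling the median of all tested genes was -1.072, below the value of Nrp1.

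Adaptors and enzymes that pass on the signal inside the cell mostly did not pass the test. Of 20 genes 17 were not called, among them Grb2, Ptpn11 and Stat3, and the median log2 fold change was 0.038. Fyn, a kinase of the Src family, fell from 61.1 ± 24.7 to 6.33 ± 0.560 CPM, which is a log2 fold change of -3.27 (edgeR, adjusted p = 7.11e-05). Pik3cb, a catalytic subunit of phosphoinositide 3-kinase, rose by 1.21 on the log2 scale, and by 0.17 with the epithelium scaling. Src had a log2 fold change of 0.56 (edgeR, adjusted p = 0.0414), a call that was lost without each of knockout replicates 1, 2 and 3 (adjusted p = 0.0907, 0.12 and 0.112). Under the alternatives its adjusted p lay between 0.0169 and 0.12, and the epithelium scaling turned its log2 fold change to -0.51. That value was above the median of all tested genes under this scaling (-1.072). Of 6 genes that switch receptors off or lead to their breakdown, 1 passed, the ubiquitin ligase gene Cblb, with a log2 fold change of -0.65 (edgeR, adjusted p = 0.015). Leaving out knockout replicate 2 gave an adjusted p of 0.0514 and leaving out knockout replicate 3 gave 0.0635, the highest of the alternatives, the lowest being 0.000167.

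Genes that growth factor receptors in general turn on were read last. Of 9 such genes, 6 were higher, Myc was lower, and Egr1 and Fos did not pass, with a median log2 fold change of 0.75. Over all tested genes 13.6% were higher and 18.0% lower. The number of the 9 genes that were higher was 4 without knockout replicate 3, without overexpression replicate 2 and without overexpression replicate 3. With the epithelium scaling 0 of the 9 were higher and 3 lower, beside 1.98% higher and 64.1% lower over all tested genes. Ccnd1, the cyclin D1 gene, rose from 293 ± 17.9 to 668 ± 112 CPM, a log2 fold change of 1.19 (edgeR, adjusted p = 0.00104) that was 0.14 with the epithelium scaling. Spry2, Fosl1 and Ier3 had log2 fold changes of 0.98, 0.80 and 0.75, and of -0.069, -0.25 and -0.28 with the epithelium scaling. These values lay above the median of all tested genes under that scaling, which was -1.072. Ier3 was not called without knockout replicate 3 (adjusted p = 0.0658; alternatives gave 0.000657 to 0.342). Myc fell by 0.60 on the log2 scale (edgeR, adjusted p = 0.0447), and its adjusted p was over 0.05 in 5 of the 6 fits that left out 1 library: those without knockout replicate 2 (0.178), knockout replicate 3 (0.1), and overexpression replicates 1 (0.0686), 2 (0.1) and 3 (0.133). Its adjusted p under the alternatives lay between 0.000209 and 0.178. These genes answer to many receptors, and their part in PDGF signalling was not tested.

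**Figure D4:**
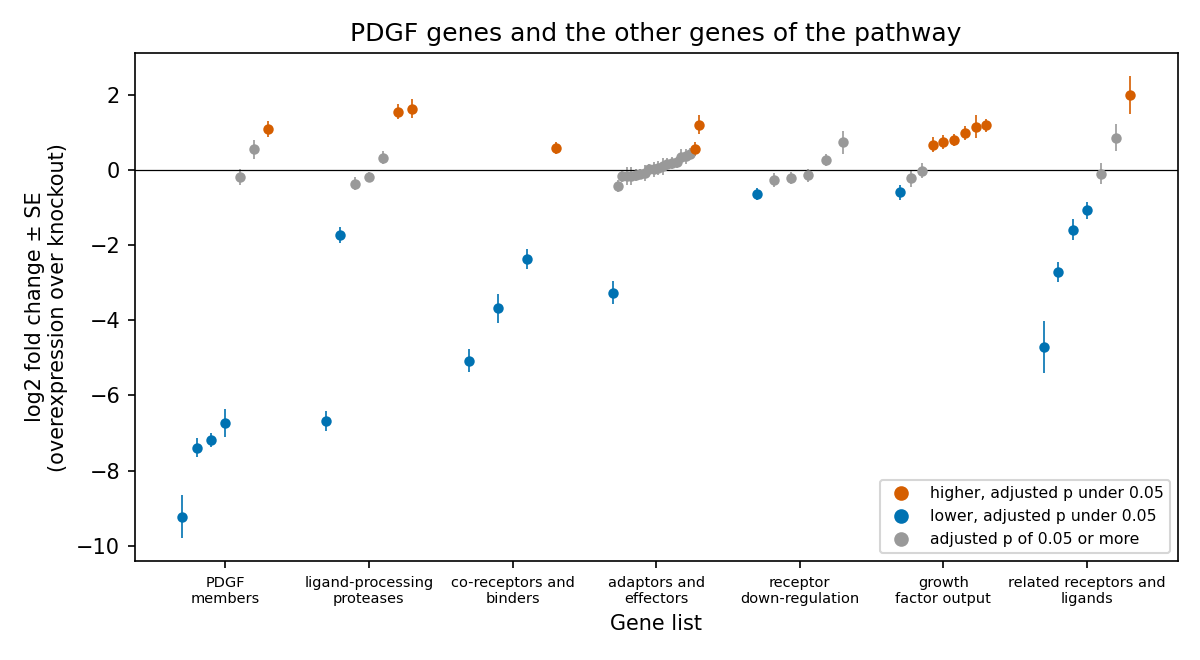
Log2 fold change (overexpression over knockout) with its standard error for each PDGF gene and each gene of the 6 pathway lists, coloured by the edgeR call. Among the PDGF genes 4 lie below -6, the fitted value of Pdgfd being no measure of size since its overexpression counts are at most 1, while 17 of 20 adaptors and effectors are not called; the orange points of the pathway lists lose their call when libraries are scaled to epithelium markers.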

How the data were processed

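The authors deposited 1 table of whole-number counts per Ensembl gene, with 1 column per library and no normalization. The submitters' processing notes name kallisto 0.44.0 and the build mm10. If kallisto made the table, the counts are rounded estimates in which reads shared by several genes are divided. Which annotation was used, and whether strand was kept, is not given in the sources used here. Libraries were made with a low-input kit, per the labels' protocols. Nothing says whether replicates came from separate tumours, so p-values measure only the spread between these libraries, which may be technical. No replicate pair agreed within sampling noise (chi-square over its degrees of freedom at least 37.7).

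Columns were matched to samples by the labels' descriptions. Of 55481 rows, 96 spike-in or construct rows, with 9 counts in all, were left out. Symbols, positions and exon lengths came from GENCODE M21 (GRCm38). Low genes were removed by filterByExpr (min.count 10, min.total.count 15), and edgeR 4.0.16 gave quasi-likelihood tests (TMM, group as the only term, all 6 libraries, R 4.3.3), with Benjamini-Hochberg adjustment over 18504 genes and a threshold of 0.05. The standard error is the log2 fold change divided by the square root of the F statistic. CPM use TMM-scaled library sizes. TPM are counts per exon base, scaled to the same sum in each library. Correlations use log2 CPM with a prior count of 2.

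The members, lists and tests were chosen with earlier results of these data known. Genes named are the 7 members, up to 4 genes with the smallest p in each direction of each pathway list, and the 3 genes of an average log2 CPM of at least 2 most correlated with each member, without predicted genes. Marker genes are named where their list is described. Alternatives were RLE and upper-quartile normalization, scaling to the epithelium markers, no filter, robust dispersion, the Wald test of DESeq2 1.42.0, the replicate number as a block, leaving out each library, and, for ratios, the median of a list. On simulated counts for 18504 genes of this comparison, the fit recovered 18 of 70 genes changed 2-fold, 54 of 66 changed 4-fold and 64 of 64 changed 128-fold, with 3 false calls among 139. Only these genes were changed, up or down at random, whereas 31.6% of tested genes were called in the real libraries. The simulation therefore does not show how TMM scaling or recovery behave with that many changes. No batch or date is in the labels.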

Additional observations from a re-analysis of the deposited data

Results flagged for a closer look

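Among the rows that name no mouse gene, the fluorescent reporter mCherry had 8 counts in knockout replicate 3, above the 3 counts that a count of 0 allows. It had 1 count in knockout replicate 2 and 0 in the other libraries. Knockout replicate 3 also had the highest leukocyte and endothelium marker sums and the lowest levels of Pdgfa and Pdgfb. For Pdgfc it was lowest in CPM, close to overexpression replicate 2 (25.2 against 25.8), but in TPM overexpression replicate 2 was lower (13.3 against 17.8). Groups of 3 are too small for the search for single outlying libraries.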

How the results depend on the processing

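The calls of Pdgfra, Pdgfrb, Pdgfrl and Pdgfd as lower held under all 13 alternatives. Scaling to the epithelium markers was the alternative that ended the call of Pdgfb, added Pdgfc to the lower calls and turned the direction of Pdgfa, which passed under none. That scaling called 366 genes higher and 11866 lower (2.99% of calls higher, against 43.1% with TMM), 0 members higher, and 0 pathway genes higher with 37 lower. It gave log2 fold changes of -0.46 for Pdgfa, 0.062 for Pdgfb, -1.20 for Pdgfc, -0.45 for Nrp1, -0.51 for Src, -0.069 for Spry2, -0.25 for Fosl1 and -0.28 for Ier3. All of these but that of Pdgfc lay above the median of all tested genes under the same scaling (-1.072). The scaling sets epithelium markers equal between groups by construction. With the median of a list as denominator, the differences in log2 ratio to mural markers were -2.45 for Pdgfra and -2.20 for Pdgfrb, and to epithelium markers -0.65 for Pdgfa. Pdgfd was given no ratio, since 1 library holds 0 counts.

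When 1 library was left out, between 1446 and 2599 genes were called higher and between 2784 and 3256 lower. The log2 fold changes then lay between -7.66 and -7.25 for Pdgfra, -7.24 and -7.11 for Pdgfrb, -6.91 and -6.44 for Pdgfrl, 0.95 and 1.30 for Pdgfb, 0.32 and 0.76 for Pdgfa, and -0.38 and -0.042 for Pdgfc. The lowest counts of higher calls were 1446 without knockout replicate 2 and 1610 without knockout replicate 3. The cause was not tested. Libraries with the same replicate number did not deviate together (correlations of 0.051, 0.022 and -0.040), and knockout replicates 2 and 3 did not correlate best with their own numbers. With the replicate number as a block, 5593 genes were called in place of 5848, the 7 members kept their calls (log2 fold change 1.11 for Pdgfb), and Src and Myc lost theirs (adjusted p = 0.0541 and 0.0604). With overexpression libraries holding 35 to 77 counts of Pdgfra and 7 to 11 of Pdgfrl, depth limits how well their low levels are known.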

Other observations

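Receptors of the same class as the PDGF receptors, and their ligands, were measured in the same libraries. Of 7 genes, 4 were lower with overexpression (Csf1, Kit, Flt3l and Il34) and 1 was higher (Flt3) past the threshold, while Csf1r and Kitl did not pass. Over all tested genes 18.0% were lower and 13.6% higher. Of the 7 genes, the number higher was 2 without overexpression replicate 3 and 0 without knockout replicate 2 or overexpression replicate 2. Levels are means ± SD over n = 3 libraries of a group. Csf1, the ligand of the macrophage receptor, fell from 170 ± 49.7 to 26.1 ± 5.61 CPM, which is a log2 fold change of -2.70 (edgeR, adjusted p = 0.000105). Il34, the other ligand of that receptor, fell by 1.07 on the log2 scale and Flt3l by 1.59. Kit, a receptor of mast cells and melanocytes, fell from 6.35 ± 3.99 to 0.231 ± 0.140 CPM, with 3 to 15 counts in an overexpression library.

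Flt3, a receptor of blood progenitors and dendritic cells, was at 2.76 ± 2.19 CPM with knockout and 11.1 ± 2.72 CPM with overexpression, which is a log2 fold change of 1.99 (edgeR, adjusted p = 0.0165). It had 45 to 193 counts in a knockout library and 340 to 413 in an overexpression library, in which Ptprc, a gene of all leukocytes, had 14 to 20 counts. The log2 fold change was 2.89 without knockout replicate 3, the knockout library with 193 counts. The call was lost without knockout replicate 2 (adjusted p = 0.0545) and without overexpression replicate 2 (0.0656), the log2 fold change was 0.78 with the epithelium scaling, and the adjusted p ranged from 2.43e-05 to 0.207 over the alternatives.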
